A study of Papio cynocephalus with 12 samples.

Results

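Receptors that bind opsonized bacteria were followed through 6 mappings of the same blood RNA-Seq reads. The set has 10 RefSeq accessions, fixed as a list, out of 40915 accessions in the count tables, and each stands for 1 gene: the Fc gamma receptors FCGR1A (NM_000566), FCGR2A (NM_021642), FCGR2B (NM_004001), FCGR3A (NM_000569) and FCGR3B (NM_000570), the signalling chain FCER1G (NM_004106), and the complement receptors ITGAM (NM_000632), ITGAX (NM_000887), ITGB2 (NM_000211) and CR1 (NM_000573). Only the listed accession of each gene was counted, and rows of other isoforms were not used. Each count, level and correlation below therefore belongs to the listed accession and not to the whole gene. A count of 0 does not show that the gene was silent.

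The animals were 12 yellow baboons (Papio cynocephalus), all adult males bred in a colony, and each gave 1 blood sample at baseline, before the inoculation of a study of Streptococcus pneumoniae in which some of them were controls that received no bacteria. At this time all 12 form 1 untreated group, so the comparisons are between mappings of the same reads and among animals. The labels name mononuclear cells of the peripheral blood as the source. The paper instead describes peripheral blood collected in PAXgene Blood RNA tubes, which take whole blood, and a later depletion of globin transcripts. The accessions analysed here are no check of the source. Reads were mapped to the human transcriptome with Bowtie2 and Stampy and to the human genome with Bowtie2 (Bowtie2-G), Stampy (Stampy-G), TopHat2 and GSNAP, where TopHat2 and GSNAP can split a read across a splice junction. The deposited values are whole-number counts, and a column held from 7249470 counts (GSNAP) to 18911340 counts (Stampy).

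Phagocytes take up bacteria far better once antibody or complement coats them. Fc gamma receptors bind the stem of IgG. FCGR1A encodes CD64, the high-affinity receptor of monocytes and macrophages, FCGR2A an activating and FCGR2B an inhibitory low-affinity receptor (CD32), FCGR3A the transmembrane CD16 of natural killer cells and some monocytes, and FCGR3B the lipid-anchored CD16 of human neutrophils. FCGR1A and FCGR3A lack an activating signalling motif of their own and pass their signal through the common gamma chain, the product of FCER1G. CR1 encodes CD35, which binds C3b. Complement receptors 3 and 4 are integrin heterodimers that bind iC3b, and both use the beta chain CD18 encoded by ITGB2, with the alpha chain CD11b from ITGAM in the former and CD11c from ITGAX in the latter. The human low-affinity Fc receptor genes are close copies of one another, and FCGR1A also has near-identical relatives, so the assignment of reads within these families is uncertain.

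The members fell into 3 classes by their counts. FCER1G, ITGAX and FCGR1A reached 5 counts in every one of the 12 animals and 6 mappings, and ITGB2 did so in the 5 mappings other than GSNAP. FCGR3A and FCGR3B had only traces, never above 15 counts in an animal. FCGR2A, FCGR2B, ITGAM and CR1 had no count in any of the 72 columns. These 4 accessions included the partner chain of complement receptor 3, so that ITGB2 could be compared with ITGAX but not with ITGAM. Over all accessions listed, 33.8% had no count in any column, and among protein-coding NM accessions 35.2%, so 4 of 10 lies near the background. A sum of 0 over the 12 columns of a table allows up to 3 counts, which is 0.0152 CPM (counts in 1000000 counts of the column) with Stampy, the deepest table, and 0.0305 with GSNAP, the shallowest. Such limits cover counting error only. Reads that match several isoforms equally well are left unassigned by the counting mode used, and how many such reads these accessions lost was not tested.

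**Figure D1:**
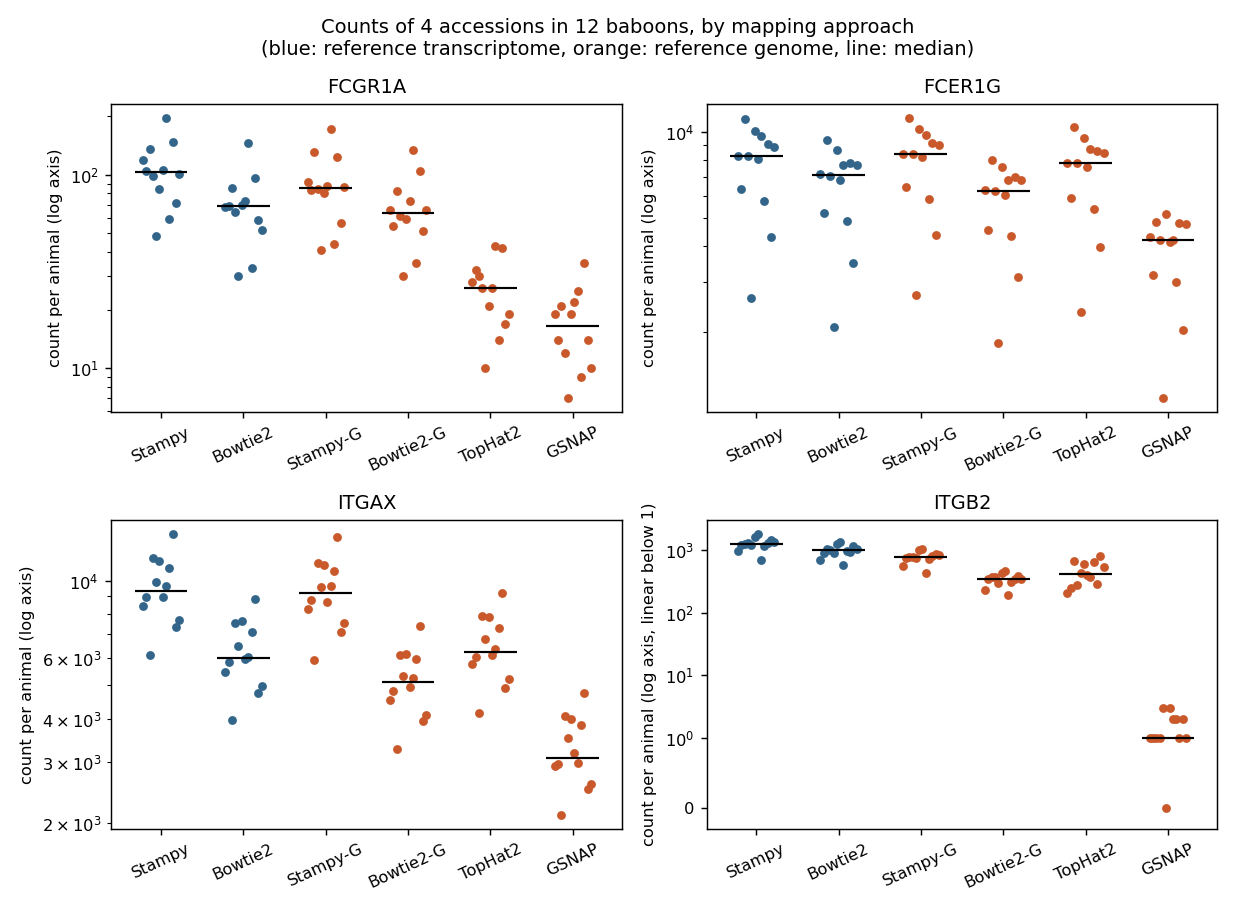
Counts of FCGR1A, FCER1G, ITGAX and ITGB2 in each of 12 baboons (points) with 6 mappings on the x axis. The y axis is the count on a log scale, linear below 1 for ITGB2, and the black line is the median. ITGB2 dropped to between 0 and 3 counts with GSNAP, and FCGR1A was low with TopHat2 and GSNAP.

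FCER1G, the signalling chain, had its highest counts with Stampy and Stampy-G and its lowest with GSNAP. Its counts had a lowest, median and highest value of 2633, 8280.5 and 11143 with Stampy, 2697, 8378.5 and 11261 with Stampy-G, and 2347, 7801.5 and 10436 with TopHat2. Bowtie2 gave 2079, 7113 and 9399, Bowtie2-G 1829, 6257 and 8008, and GSNAP 1175, 4206.5 and 5167. The spread between animals was wide and the ranges of the 6 tables overlapped, yet the order of the methods repeated within animals.

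ITGAX, the alpha chain of complement receptor 4, separated the methods further. With Stampy its counts ran from 6123 to 13610 (median 9303.5) and with Stampy-G from 5896 to 13385 (median 9189). They ran from 4156 to 9194 (median 6238.5) with TopHat2, from 3966 to 8871 (median 5985.5) with Bowtie2 and from 3265 to 7419 (median 5098.5) with Bowtie2-G. GSNAP was lowest, from 2121 to 4739 (median 3079). In every animal both Stampy mappings exceeded the 4 other mappings for this accession.

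FCGR1A, the high-affinity IgG receptor, had few counts. They ran from 48 to 197 (median 103) with Stampy, from 41 to 172 (median 85) with Stampy-G, from 30 to 146 (median 68.5) with Bowtie2 and from 30 to 134 (median 63.5) with Bowtie2-G. TopHat2 gave 10 to 43 (median 26) and GSNAP 7 to 35 (median 16.5). The ranges of TopHat2 and Bowtie2-G overlapped, but within each animal the count with TopHat2 was the lower of the pair.

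ITGB2, the shared beta chain, depended most on the mapping. Its counts ran from 693 to 1811 (median 1261) with Stampy, from 571 to 1354 (median 983) with Bowtie2 and from 426 to 1045 (median 762) with Stampy-G. Bowtie2-G gave 192 to 469 (median 347.5) and TopHat2 203 to 797 (median 414). With GSNAP it nearly vanished, at 0 to 3 counts per animal and 18 in all 12. The GSNAP values did not overlap with those of any other mapping.

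Counts were compared between methods with edgeR's quasi-likelihood test over all accessions, with the animal as a block and the animal's number of read pairs as the library size of both columns. A fold here is thus a difference in reads assigned out of the same reads. The p-value weighs the size of the fold against its spread over the 12 animals and the counting error, so it is not a measure of evenness alone. The fit treats both columns of an animal as separate counts, although they come from the same reads. All p-values were adjusted by Benjamini-Hochberg over all accessions tested, and a call is an adjusted p under 0.05. In each of the 6 comparisons 4 members passed the filter on low counts, and FCGR3A, FCGR3B and the 4 members at 0 did not. Since the overall number of assigned reads differs between methods, the median log2 fold change of all accessions is given beside the members, and scaling each column by TMM would shift all log2 values by 0.28 to 0.74, depending on the comparison.

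The reference sequence mattered for ITGB2 more than for the other 3. On the transcriptome, Bowtie2 assigned 2.57 to 3.09 times as many reads to ITGB2 as on the genome (median 2.97 over 12 animals, log2 fold change 1.53, adjusted p = 7.51e-17 in edgeR). Among all accessions tested, 82.1% had a smaller log2 fold change, so ITGB2 was not extreme. For ITGAX the ratio was 1.14 to 1.25 (log2 fold change 0.27, adjusted p = 7.43e-13) and for FCER1G 1.12 to 1.17 (log2 fold change 0.19, adjusted p = 4.08e-13), both close to the median log2 fold change of all 11409 accessions tested, 0.22. FCGR1A was higher with Bowtie2 in 7 animals and lower in 3, and did not pass the test (log2 fold change 0.05, adjusted p = 0.529). Thus 3 of the 4 tested members were higher with Bowtie2, against 70.1% of all accessions, and none with Bowtie2-G, against 7.29%. With TMM scaling, FCGR1A, FCER1G and ITGAX turned to the other direction and ITGB2 alone stayed higher on the transcriptome.

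With Stampy the contrast of references was smaller. ITGB2 was 1.59 to 1.74 times as high on the transcriptome (log2 fold change 0.72, adjusted p = 2.52e-15 in edgeR), and FCGR1A 1.04 to 1.34 times (log2 fold change 0.24, adjusted p = 0.000106). FCER1G was slightly lower on the transcriptome in 12 of 12 animals, at a ratio of 0.976 to 0.990 (log2 fold change -0.02, adjusted p = 0.00131), and ITGAX slightly higher, at 1.00 to 1.04 (log2 fold change 0.04, adjusted p = 2.21e-06). The median over all 13416 accessions was 0.19, so both lay below the typical accession. For ITGB2, 69.9% of these accessions had a smaller log2 fold change. Of the members, 3 were higher with Stampy (background 64.6%) and 1 with Stampy-G (background 9.12%). With TMM scaling ITGAX was called lower on the transcriptome (log2 fold change -0.24), FCGR1A was no longer called (log2 fold change -0.034, adjusted p = 0.593), and ITGB2 was the only member called higher.

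Stampy assigned more reads than Bowtie2 to all 4 tested members on either reference. On the transcriptome the median ratio was 1.54 for FCGR1A, 1.54 for ITGAX, 1.30 for ITGB2 and 1.17 for FCER1G, each above 1 in 12 of 12 animals. Log2 fold changes were 0.59 (adjusted p = 8.46e-08), 0.62 (adjusted p = 2.28e-17), 0.37 (adjusted p = 8.59e-11) and 0.25 (adjusted p = 9.55e-11 in edgeR), in that order. The background of accessions higher with Stampy was 82.6% (3.36% were higher with Bowtie2), and their median log2 fold change was 0.38. ITGB2 was therefore close to the typical accession here, FCER1G below it, and these were the members that turned to the other direction under TMM scaling.

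On the genome the order changed. ITGB2 had the largest ratio of Stampy-G to Bowtie2-G, 2.08 to 2.45 (log2 fold change 1.18, adjusted p = 8.01e-17 in edgeR), followed by ITGAX at 1.76 to 1.83 (log2 fold change 0.86, adjusted p = 4.23e-22). FCER1G was 1.32 to 1.47 times as high (log2 fold change 0.46, adjusted p = 8.52e-15) and FCGR1A 1.10 to 1.60 times (log2 fold change 0.40, adjusted p = 1.68e-07). All 4 were higher with Stampy-G in 12 of 12 animals, beside 89.7% of all accessions (1.86% were higher with Bowtie2-G) and a median log2 fold change of 0.42. Relative to that median only ITGAX and ITGB2 stood higher by more than 0.4 on the log2 scale. With TMM scaling neither FCGR1A (log2 fold change -0.052, adjusted p = 0.486) nor FCER1G (log2 fold change 0.0032, adjusted p = 0.833) was called.

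**Figure D2:**
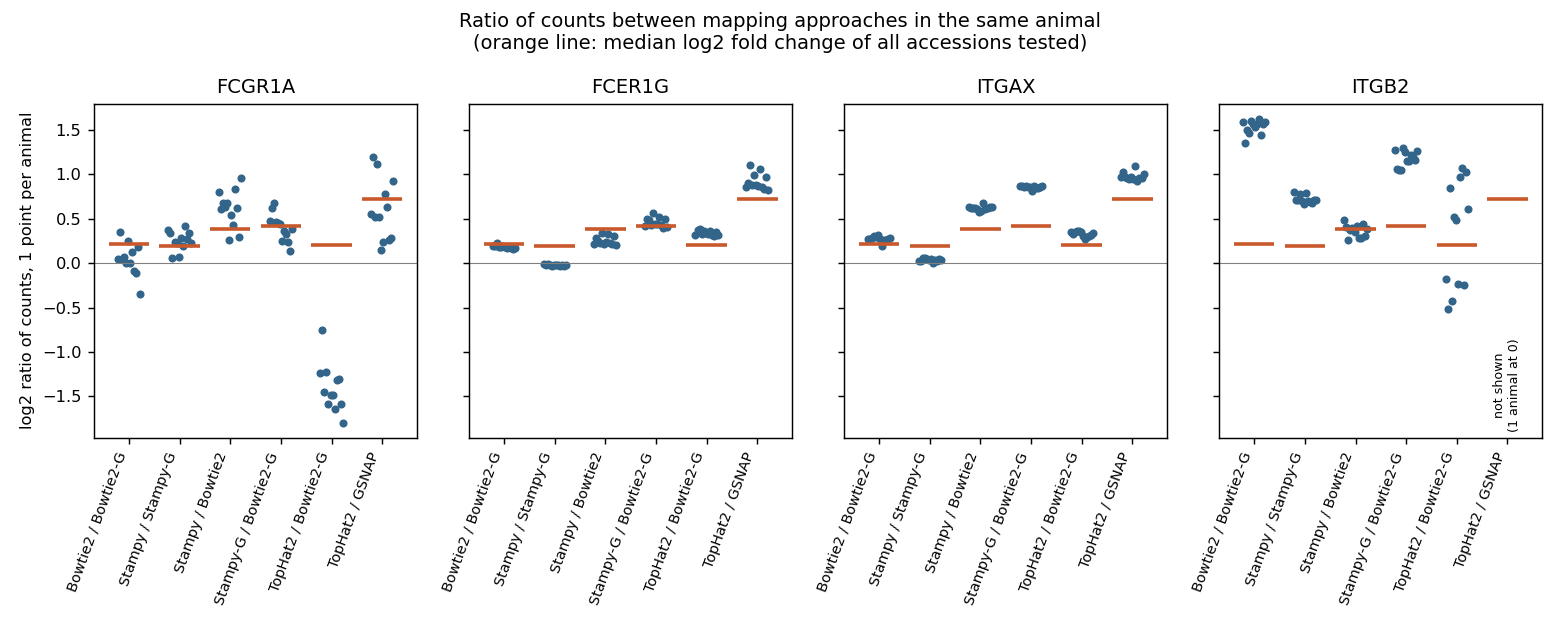
Log2 ratio of counts between 2 mappings of the same animal (y axis, 1 point per animal) for 6 comparisons (x axis) and 4 genes (panels). ITGB2 with TopHat2 against GSNAP is not shown, because animal 6 had 0 counts with GSNAP. The orange lines are the median log2 fold change of all accessions tested. FCER1G and ITGAX stay within narrow bands, FCGR1A falls below 0 with TopHat2 against Bowtie2-G, and ITGB2 spreads from 0.697-fold to 2.11-fold in that comparison.

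TopHat2 builds on Bowtie2 and adds spliced alignment. The paper also states that it was given annotation, tries known transcripts before the genome, and uses another seed length and interval. Its comparison with Bowtie2-G therefore does not isolate spliced alignment. FCER1G and ITGAX gained alike, by 1.23 to 1.30 times and 1.21 to 1.29 times the count of Bowtie2-G (log2 fold changes 0.34 and 0.33, adjusted p = 4.55e-15 and 1.38e-14 in edgeR). FCGR1A went the other way and kept 0.288 to 0.593 of its Bowtie2-G count, lower in 12 of 12 animals (log2 fold change -1.40, adjusted p = 6.78e-11). Only 2.71% of the 11146 accessions tested had a lower value, and their median was 0.20. The drop of FCGR1A held with TMM scaling, at a log2 fold change of -1.70, while ITGAX was then no longer called (log2 fold change 0.029, adjusted p = 0.0506). Calls were 3 members higher with TopHat2 (background 70.6%) and 1 member higher with Bowtie2-G (background 8.1%).

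ITGB2 was called higher with TopHat2 than with Bowtie2-G on average, but not evenly. It was higher in 7 animals and lower in 5 (log2 fold change 0.40, adjusted p = 0.0269 in edgeR). The call was lost with DESeq2 (adjusted p = 0.0554), without the filter (adjusted p = 0.0558) and with TMM scaling (log2 fold change 0.10, adjusted p = 0.524), and adjusted p = 0.0445 was left without animal 5.

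TopHat2 also exceeded GSNAP for all 4 members. FCER1G was 1.77 to 2.15 times as high (log2 fold change 0.92, adjusted p = 4.53e-15 in edgeR), ITGAX 1.90 to 2.13 times (log2 fold change 0.98, adjusted p = 3.75e-19) and FCGR1A 1.11 to 2.29 times (log2 fold change 0.57, adjusted p = 3.17e-05). Each was higher in 12 of 12 animals, where 93.2% of all 10747 accessions were called higher with TopHat2 (3.24% with GSNAP) and their median was 0.72. Under TMM scaling FCGR1A turned to the other direction and was not called (adjusted p = 0.218). ITGB2 had 5445 counts with TopHat2 and 18 with GSNAP, a ratio of 302.5 (95% counting interval 191 to 511, log2 fold change 8.13, adjusted p = 5.19e-20). In this comparison 98.4% of all accessions had a smaller log2 fold change, and ITGB2 remained far higher with TopHat2 under TMM scaling (7.41). Against the deepest table, Stampy, the ratio to GSNAP was 847 (95% counting interval 536 to 1429). A counting interval treats the 2 sums as independent counts, although both come from the same reads. It also leaves out the spread between animals.

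The ITGB2 ratio between TopHat2 and the other mappings fell into separate ranges over the animals. Relative to Stampy, TopHat2 counted 0.204 to 0.228 of the reads in animals 1, 2, 4, 7 and 10, 0.359 to 0.387 in animals 5, 6 and 12, and 0.530 to 0.562 in animals 3, 8, 9 and 11. No animal lay between these ranges. Relative to Bowtie2-G the same 5, 3 and 4 animals had ratios of 0.697 to 0.883, 1.40 to 1.52 and 1.80 to 2.11. Against Bowtie2 the ratios of these animals were 0.270 to 0.309, 0.471 to 0.506 and 0.636 to 0.686, and against Stampy-G 0.334 to 0.383, 0.583 to 0.632 and 0.866 to 0.910. The animals were ordered by the ratio itself, so their split is a description and was not tested. All these ratios share the TopHat2 counts, so the same groups against each mapping are not independent repeats.

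In animal 2, for example, TopHat2 gave 244 counts and Stampy 1194, and in animal 11 TopHat2 gave 797 and Stampy 1437. The SD of the log2 ratio of TopHat2 to Bowtie2-G over animals was 0.61 for ITGB2, 0.03 for ITGAX and 0.03 for FCER1G. Among 5788 accessions with a mean of at least 100 counts in both tables, the median SD was 0.04 and ITGB2 had the rank 6 from the top. Between the other mappings the SD of ITGB2 was smaller, at 0.09 for Stampy-G against Bowtie2-G, 0.08 for Bowtie2 against Bowtie2-G and 0.04 for Stampy against Stampy-G. In the first of these it was still above the median of 0.04, with the rank 642 of 5916 accessions. The second was also above its median of 0.04, with the rank 1084 of 5797, and the third was near its median. In GSNAP the counts were too few to compare.

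**Figure D3:**
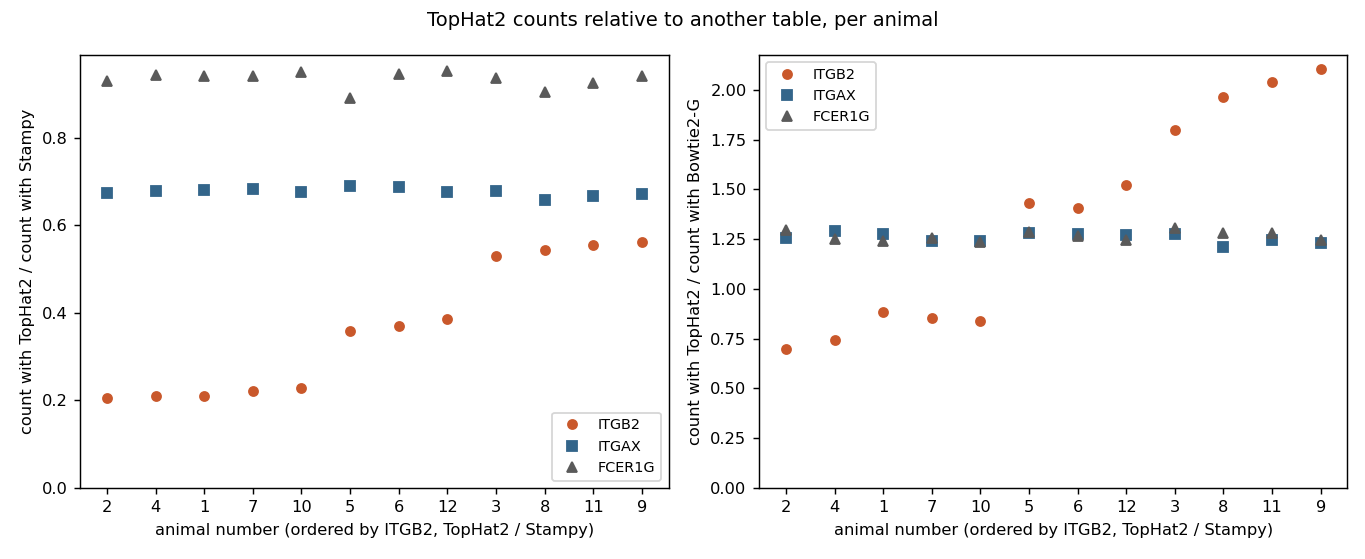
Count with TopHat2 divided by the count with Stampy (left) or Bowtie2-G (right) in each of 12 animals, ordered by the ITGB2 ratio to Stampy. ITGB2 (circles) steps from 0.204 to 0.562 on the left and from 0.697 to 2.11 on the right, while ITGAX (squares) and FCER1G (triangles) stay level.

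The spread of ITGB2 among animals changed with the mapping in step. Its level in CPM, relative to the total of the same column, was 77.4 ± 16.9 (SD, n = 12) with Stampy, a coefficient of variation of 21.8%, and 33.6 ± 14.0 (SD, n = 12) with TopHat2, a coefficient of 41.5%. With TopHat2, 91.8% of the 6697 accessions with a mean of at least 100 counts varied less, whereas with Stampy it was 44.5% of 7867. Animal 8 had the lowest ITGB2 level in the 4 unspliced mappings, 41.7 CPM with Stampy, but with TopHat2 animal 2 was lowest, at 16.5, and animal 8 had 27.4. The order of animals for this accession thus depended on the mapping.

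FCGR3A and FCGR3B, the CD16 pair of the human reference, were at trace level and were taken up by different mappings. Whether the baboon carries both genes was not tested, so these are baboon reads assigned to 1 or the other human sequence. FCGR3B had 80 counts with Stampy, from 2 to 15 per animal (median 6), and 63 with Stampy-G, from 0 to 14 (median 4.5). Bowtie2 gave 14 counts over the 12 animals, Bowtie2-G 2, and TopHat2 and GSNAP none. FCGR3A had 35 counts with TopHat2, from 0 to 8 per animal and above 0 in 9 of 12, 2 each with Bowtie2-G and Stampy-G, and none with Bowtie2, Stampy or GSNAP. In each mapping at least 1 of the pair had 2 counts or fewer in all.

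**Figure D4:**
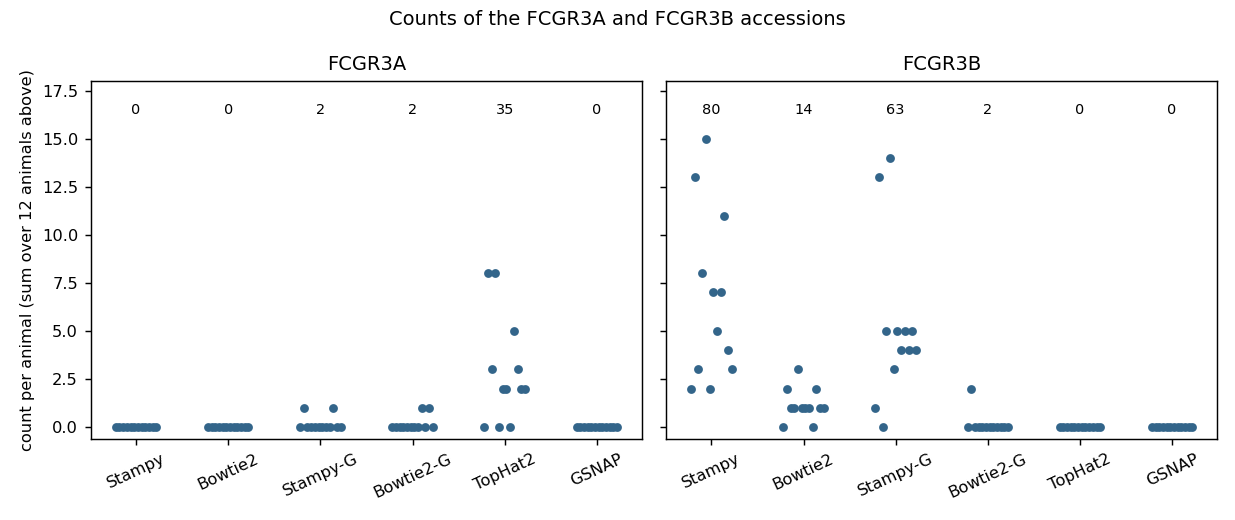
Counts of FCGR3A (left) and FCGR3B (right) in 12 animals (points) with 6 mappings, with the sum over animals printed above. Traces of FCGR3A appear with TopHat2 (35 counts) and traces of FCGR3B with Stampy (80 counts) and Stampy-G (63 counts).

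These differences were tested on the log2 ratio of FCGR3B to FCGR3A, with 1 added to each count, with exact sign exchanges within the 12 animals as the permutation test (two-sided, Benjamini-Hochberg over 6 comparisons). Since 1 of the pair was at or near 0 in every mapping, each test is in effect one of the other accession and does not measure a balance of the pair. With Stampy and Bowtie2, where FCGR3A was at 0 in all 12 animals, the value is that of FCGR3B alone, 2.72 ± 0.84 (SD, n = 12) against 1.01 ± 0.58, a difference of 1.71 ± 0.66 in 12 of 12 animals (exact p = 0.000488, the smallest the design allows, adjusted p = 0.00293). On the genome it was 2.17 ± 1.00 with Stampy-G and -0.03 ± 0.64 with Bowtie2-G, higher in 11 animals with 1 tie (exact p = 0.000977, adjusted p = 0.00293). Bowtie2 was above Bowtie2-G by 1.05 ± 0.63 in 10 animals with 2 ties (exact p = 0.00195, adjusted p = 0.00391), and Stampy above Stampy-G by 0.55 ± 0.85 in 9 animals against 3 (exact p = 0.0381, adjusted p = 0.0381). With TopHat2 the value was -1.61 ± 1.12, set by FCGR3A alone, and differed from Bowtie2-G by -1.57 ± 1.40 in 9 animals with 3 ties (exact p = 0.00391, adjusted p = 0.00469). The comparison of TopHat2 with GSNAP, where both accessions were at 0, could go in 1 direction only and is given by its counts. It still entered the adjustment over 6 comparisons. With Bowtie2-G each accession had only 2 counts over the 12 animals. The comparisons with Bowtie2-G could thus hardly go the other way, and no conclusion is drawn from their p-values. The size of all these values depends on the added count.

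In folds, FCGR3B was 5.71 times as high with Stampy as with Bowtie2 (95% counting interval 3.22 to 10.9) and 31.5 times as high with Stampy-G as with Bowtie2-G (interval 8.37 to 266). These intervals too treat sums from the same reads as independent and leave out the spread between animals. FCGR3A was 11.7-fold higher with TopHat2 than with GSNAP, where GSNAP was set to the floor of 3 counts for all 12 animals together. Relative to the same floor FCGR3B was 26.7-fold higher with Stampy than with TopHat2. Both folds leave out the counting error of the higher sum, so neither is a strict lower limit. The animals with the most reads assigned to FCGR3B with Stampy were 5, 2 and 10, with 15, 13 and 11 counts. Those with the most reads assigned to FCGR3A with TopHat2 were 2 and 4, with 8 counts each. Reads cannot be told apart with certainty between the human sequences of the pair, so neither value is a level of a baboon gene.

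Between animals, FCER1G and FCGR1A had a wider spread than ITGAX, a difference that was not tested. In a bulk sample fewer cells of a type and less RNA per cell cannot be told apart, which holds for every level below. In CPM with Stampy, FCER1G was 475 ± 170 (SD, n = 12), from 166 in animal 5 to 740 in animal 3, a 4.44-fold range. Its coefficient of variation, 35.7%, exceeded that of 86.4% of the 7867 accessions with a mean of at least 100 counts, whose median was 22.9%. FCGR1A was 6.51 ± 2.60 (SD, n = 12), from 3.04 in animal 5 to 11.9 in animal 8 with a coefficient of 40.0%, at a median of only 103 counts. ITGAX was 584 ± 137 (SD, n = 12), from 389 in animal 11 to 848 in animal 10, with a coefficient of 23.4% near the median.

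For FCER1G, FCGR1A and ITGAX, though not for ITGB2, the animals at the ends were the same with nearly every mapping. Animal 5 had the lowest FCER1G and the lowest FCGR1A level in 6 of 6 tables, and animal 3 had the highest FCER1G level in 6 of 6. FCGR1A was highest in animal 8 in 5 of 6 tables, and in animal 10 with GSNAP. Relative to the column total, ITGAX was lowest in animal 11 and highest in animal 10 in 6 of 6 tables. Its low end depended on this scaling. By count with Stampy, animal 3 (6123) was below animal 11 (7352), whose TMM factor was 0.766. ITGB2 was lowest in animal 8 in 4 of 6 tables and highest in animal 7 in 3 of 6. Since the tables hold the same reads, this describes how far the mapping left the extremes in place, and is not a repeat of the measurement. Animal 5 was not low in ITGAX, at 625 CPM with Stampy, and had the most reads assigned to FCGR3B in that mapping.

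FCGR1A and its signalling chain FCER1G varied together over the animals. With Stampy, on the log2 scale of TMM-scaled CPM plus 1, Pearson's r was 0.83 (permutation p = 0.00064) and Spearman's rho 0.78 (permutation p = 0.00369) over 12 animals, with adjusted p = 0.00384 and 0.0221 by Benjamini-Hochberg over 6 pairs of members. Leaving out animals 5 and 8, the farthest from the median of FCGR1A, r was 0.75. Without animal 5 alone r was 0.71, and its adjusted p was 0.083. The pair had r = 0.74 with Bowtie2 (permutation p = 0.00579, adjusted p = 0.0347) and r = 0.76 with TopHat2 (permutation p = 0.00463, adjusted p = 0.0278), where rho had adjusted p = 0.137 and 0.192, and with TopHat2 r fell to 0.36 without animals 5 and 9, so that there the relation rests on them. Levels of monocyte and neutrophil markers were not analysed here, and a shared share of cells was not tested.

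The listed accessions of ITGAX and ITGB2, genes for the chains of complement receptor 4, showed no relation that the 12 animals could resolve. With Stampy r was 0.17 (permutation p = 0.607, adjusted p = 0.747) and rho 0.08 (permutation p = 0.799, adjusted p = 0.958), and without animals 6 and 10 r was -0.24. The sign turned with TopHat2, at r = -0.12. The 4 other pairs among FCGR1A, FCER1G, ITGAX and ITGB2 had r between -0.11 and 0.25 with Stampy, and the smallest unadjusted permutation p of r was 0.424. Animal 8 is an example, with the highest FCGR1A and the lowest ITGB2 level with Stampy.

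**Figure D5:**
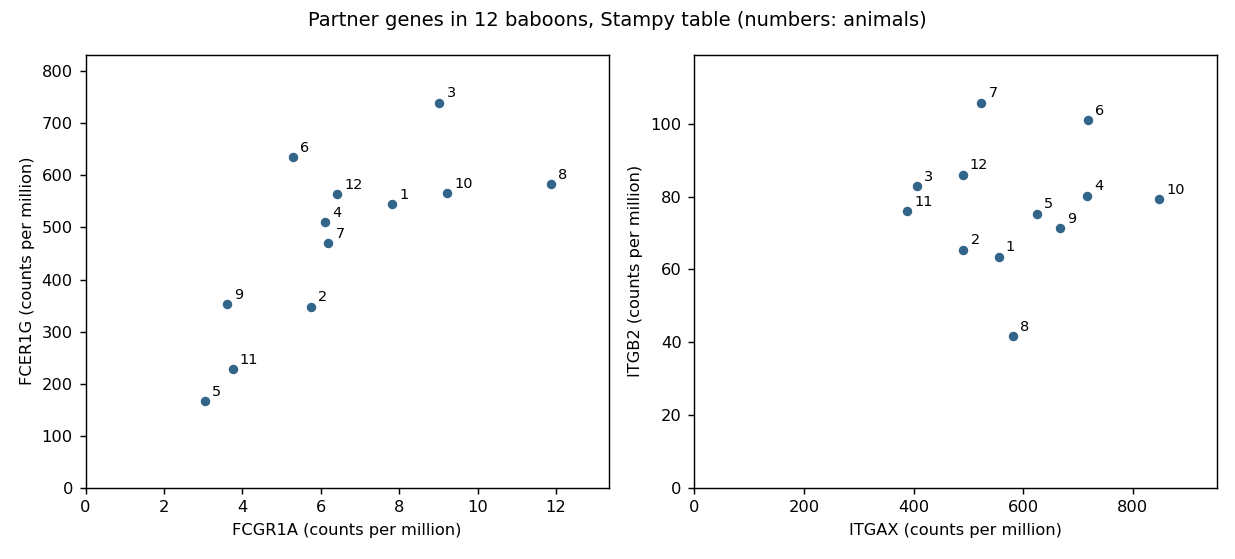
CPM with Stampy in 12 animals (numbered points): FCER1G against FCGR1A (left, r = 0.83 on the log2 scale) and ITGB2 against ITGAX (right, r = 0.17). Animals 5 and 8 mark the ends of FCGR1A on the left, and animal 8 has the lowest ITGB2 level on the right.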

How the data were processed

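Peripheral blood RNA-Seq of 12 baboons at baseline was analysed in 6 tables, 1 per mapping. The authors trimmed reads with Trimmomatic 0.25, mapped them to human hg19 sequences by 4 programs in their default configuration (Stampy, GSNAP, TopHat2 2.0.7, Bowtie2 2.0.6), and counted primary alignments per transcript with htseq-count (HTSeq 0.5.4, intersection-nonempty). The deposited values are raw counts, not normalized. The strand setting of the counting is not given in the sources used here, so reads of an antisense partner cannot be told apart. Columns were matched to animals by number alone. Rows of 1 accession were summed (41970 rows, 40915 accessions), and gene names come from the member list only. No table pairing other accessions with genes, and no sequence or transcript length, was used, so the planned lists of signalling genes and cell type markers were left out and levels were not compared between genes. The members and lists were chosen with earlier results of these data known.

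edgeR 4.0.16 (R 4.3.3; estimateDisp, glmQLFit, glmQLFTest, filterByExpr) was run on the counts with the animal as a block. The pairing follows from the design, since both columns of an animal come from the same reads. Library sizes were the read pairs after quality control that the study lists per animal. The test was checked on simulated data (12 pairs of columns, TopHat2 means, 11482 accessions), where it recovered 97% of 100 accessions changed 1.5-fold and 100% of 100 changed 2-fold, with 11 false calls among 208. The simulated columns of an animal were drawn independently, and as many accessions were raised as lowered. In the real tables both columns hold the same reads and most accessions differed, mainly in 1 direction. These rates therefore do not carry over to the comparisons here. Of the planned ratios and correlations, those with a member at 0 could not be computed, and 4 correlations among the counted members were added after seeing the data. Permutation tests of correlations used 100000 resamples and exact tests all 4096 sign exchanges. Alternatives were TMM scaling, DESeq2 1.42.0, no filter, no replicate block, rows not summed, other added counts, tables and minimums, and, chosen after seeing the data, leaving out animal 5. Python 3.11.15 with scipy 1.17.1 was used for the rest. All named genes are members of the list.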

Additional observations from a re-analysis of the deposited data

How the results depend on the processing

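Scaling by TMM in place of read pairs turned 9 of the 24 member log2 fold changes and ended the call of 3 others. Members higher with Bowtie2 than with Bowtie2-G then numbered 1, and 3 were lower, with log2 fold changes of -0.28 for FCGR1A, -0.14 for FCER1G and -0.053 for ITGAX. Members higher with Stampy than with Stampy-G numbered 1 and those lower 2 (FCER1G, and ITGAX at -0.24), while FCGR1A at -0.034 was not called. For Stampy against Bowtie2 there were 2 in each direction, with -0.17 for FCER1G and -0.049 for ITGB2. Those higher with Stampy-G than with Bowtie2-G numbered 2 (FCGR1A at -0.052 was not called), and those higher with TopHat2 than with Bowtie2-G 1. For TopHat2 against GSNAP, FCGR1A was at -0.17 and not called. Of all calls, 87.6% to 98.0% were in the direction of the first-named method with read pairs and 40.8% to 48.3% with TMM. Without the replicate block, accessions called numbered 4607 (Bowtie2 against Bowtie2-G), 5537 (Stampy against Stampy-G), 6536 (Stampy against Bowtie2), 5231 (Stampy-G against Bowtie2-G) and 4166 (TopHat2 against Bowtie2-G), where the blocked fits called 8825, 9885, 11240, 9829 and 8776. In the same fits without the block, members called higher with the first-named method numbered 1 for Bowtie2, 1 for Stampy against Stampy-G (and 0 lower), 2 for Stampy-G and 1 for TopHat2 against Bowtie2-G, since 10 member calls were lost without the block and none turned. With no filter, 15842 accessions were called for Stampy against Stampy-G and 17596 for Stampy against Bowtie2, as more were tested. DESeq2 and rows not summed kept every count of calls within 1.5 times. The correlation of FCGR1A with FCER1G was 0.71 without animal 5 and no longer passed the threshold. That of ITGAX with ITGB2 was -0.12 with TopHat2 and -0.050 with read pairs scaling. With read pairs scaling FCGR1A with ITGAX was at -0.11, FCER1G with ITGAX at -0.13 and FCER1G with ITGB2 at -0.13. The causes were not tested. FCGR1A with GSNAP (7 to 35 counts) and FCGR3A and FCGR3B with every mapping (at most 15 counts) rest on few reads.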
